A study of Macrobrachium rosenbergii with 20 samples.

Results

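Among 30260 transcripts of the giant freshwater prawn, 243 were abundant in the hepatopancreas of both sexes while staying close to absent in the typical ovary and testis. They were chosen from their measured levels. A transcript was a member when its median normalised count was at least 1000 in female and in male hepatopancreas, and under 10 in ovary and in testis. The 2 hepatopancreas medians also had to lie less than 4-fold apart after 1 was added to each. A normalised count is the rounded count divided by the size factor of its library, a scale that does not follow depth alone. Size factors ran from 1.71 to 2.59 in the ovaries, from 0.621 to 2.17 in the testes and from 0.465 to 1.12 in the hepatopancreas libraries. Ovary counts were therefore divided by more than hepatopancreas counts. With library totals alone in place of size factors, the rule gave 187 transcripts, 174 of them among the 243. Of the 30260 transcripts, 10464 had a count in at least 1 library, and 1092 reached 1000 in both hepatopancreas groups. Of these, 805 were not members because a gonad median reached 10, and a further 44 because the 2 sexes lay 4-fold or more apart.

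The hepatopancreas is the digestive gland of crustaceans. Its epithelium secretes proteases, carbohydrate-degrading enzymes and other proteins into the gut, takes up nutrients, stores lipid and glycogen, and releases proteins into the haemolymph. In many decapods it also makes vitellogenin, the yolk protein precursor, in mature females. The ovary and the testis are built from germ cells and their supporting cells. The table pairs no transcript ID with a gene name. Of all 30260 IDs, 0 matched any of the 31758 genes in RefSeq's gene table for this species, the 243 members included. IDs were compared and not sequences, so this does not show that the members lack known genes. Which of these functions the members serve was therefore not analysed here. For the same reason the labelled tissue could not be checked against marker genes, and members are called by their IDs.

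RNA came from adult Macrobrachium rosenbergii, a freshwater prawn farmed for food, of the strain labelled CMr1, with no treatment or genetic change named in the labels. The 20 libraries formed 4 groups of 5, namely female hepatopancreas, male hepatopancreas, ovary and testis. Labelled weight gain, whose unit is not given in the sources used here, ran from 4.33 to 7.21 in the female and from 1.61 to 3.69 in the male hepatopancreas samples, so it does not overlap between the sexes. The replicates of a group each carry a weight gain of their own, although no label states that they are separate animals, and p-values measure only the spread between these samples.

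The shallowest library had 8670654 counts (ovary 2) and the deepest 18355664 (male hepatopancreas 1). Over the 6582 transcripts tested in hepatopancreas, female hepatopancreas 3 held 20.1% of the squared deviations from the group means of log2 levels, female hepatopancreas 4 12.3% and male hepatopancreas 5 11.3%, and the other 7 libraries each held less. Over the 243 members the order differed. Female hepatopancreas 3 held 43.5%, female hepatopancreas 5 9.90% and female hepatopancreas 2 8.58%, while female hepatopancreas 4 held 4.54% and male hepatopancreas 5 5.30%. Where a result rests on female hepatopancreas 3 or 4 or on male hepatopancreas 5, levels per library or values without it are given for many results, not for all. In bulk tissue, fewer cells of a type and less RNA per cell cannot be told apart.

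The member IDs carry 3 features that the rule did not use, a quality class, a sex word and a number. Of the 243 members, 237 carried the word Female in their ID and 6 the word Male, much like the 97.9% Female among the 6582 transcripts tested. Members of the quality class LQ numbered 12 (4.94%), against 1.17% of the transcripts tested and 1.65% of the 849 other transcripts abundant in both hepatopancreas groups. Member lengths ran from 362 to 4361 bases with a median of 1409, which was shorter than the median of 1910 for those other abundant transcripts. The number written after f in an ID counts full-length reads in the common naming of long-read transcript sets, although the sources used here do not say so. It ranged up to 1124 among members with a median of 6, and 72 members (29.6%) stood at 2, among them 3 of the 4 most abundant per kilobase. Of the transcripts tested 37.2% stood at 2, with a median of 3, and of the 849 other abundant transcripts 25.1%, with a median of 5. Across the 243 members, Spearman's rho of the f number with the level was 0.095 and that of length with the level was -0.052. Both describe the members across transcripts, which are not independent.

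The members held a large part of all hepatopancreas counts. Their share was 32.4%, 40.5%, 24.7%, 28.9% and 43.0% of the library in female hepatopancreas 1 to 5, and 36.7%, 44.2%, 31.6%, 32.8% and 40.0% in male hepatopancreas 1 to 5. The mean was 33.9% ± 7.7 in females and 37.0% ± 5.2 in males (SD, n = 5), and the 2 ranges overlapped. Female hepatopancreas 3 had the lowest share of all 10, and without it the female mean was 36.2%. Divided by transcript length, the shares were 34.0% ± 7.0 in females and 35.3% ± 4.4 in males (SD, n = 5). In the gonads the members held between 0.00243% (testis 3) and 0.169% (ovary 5) of the counts. Since the rule required high hepatopancreas and low gonad medians, this contrast describes the choice and was not tested.

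**Figure D1:**
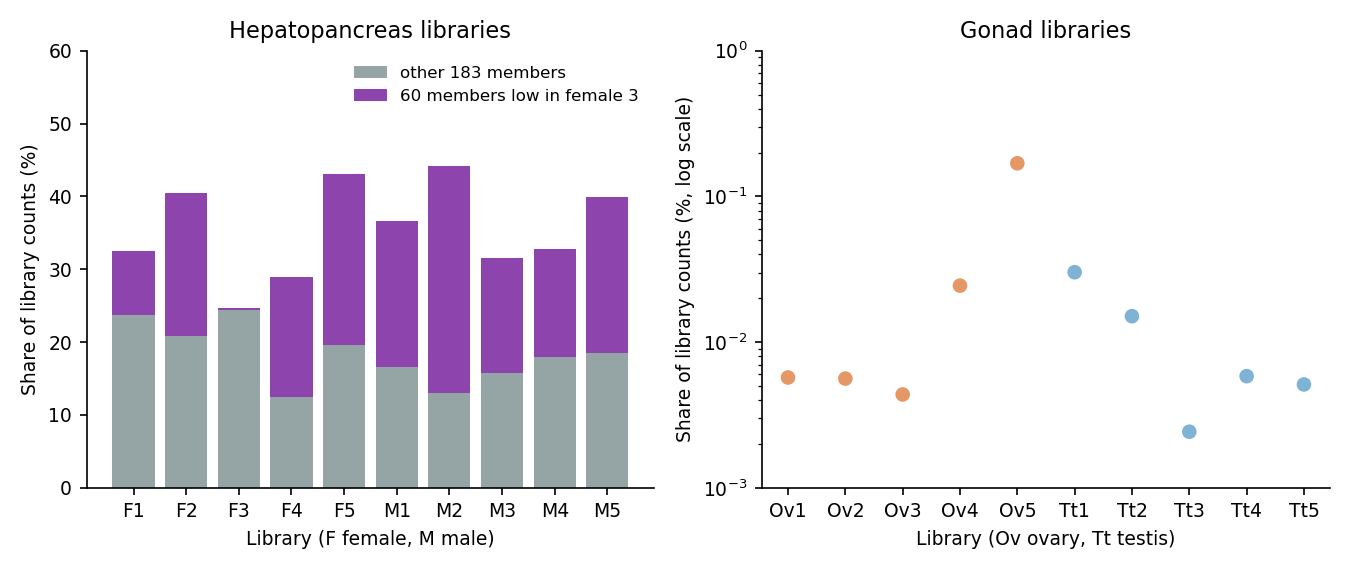
Share of each library's counts (%) held by the 243 members, in hepatopancreas on a linear axis from 0 (stacked bars, left) and in gonads on a log axis (points, right). The 60 members that were low in female hepatopancreas 3 make up 0.327% of that library, and ovary 5 stands above the other gonad libraries at 0.169%.

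The levels of the members were unequal. Taking for each member the smaller of its 2 hepatopancreas medians, levels ran from 1005 to 739762 normalised counts with a median of 4949. The first 9 members by this level held 50% of the summed level and the first 83 held 90%, while 51 members lay under 2000. Levels of at least 10000 were reached by 73 members and of at least 100000 by 10. Those 10 members together held 14.9% ± 4.5 of the counts in female and 19.3% ± 6.2 in male hepatopancreas (SD, n = 5), with male hepatopancreas 2 the highest at 30.2%.

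The member with the highest level per kilobase was transcript_HQ_Female_transcript3149/f2p0/2138, at 320200 normalised counts per kilobase in the female and 338966 in the male median. Its normalised counts were 54505, 702614, 17.9, 684589 and 1116138 in female hepatopancreas 1 to 5, and 988223, 2895322, 522832, 595108 and 724709 in male hepatopancreas 1 to 5. The 5 male libraries were all high, and the female libraries spread from near absence in library 3 to the highest female value in library 5. The next was transcript_LQ_Female_transcript15564/f2p0/1212, with 471073, 366821, 341481, 159298 and 265606 normalised counts in females and 525366, 318922, 454453, 555015 and 189663 in males. This transcript was high in each of the 10 libraries, female hepatopancreas 3 included, and the sexes overlapped.

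The third and the fourth by level per kilobase were also lowest in female hepatopancreas 3. Transcript_HQ_Female_transcript328/f6p0/3575 had 174810, 847653, 402, 739762 and 984184 normalised counts in females and 2147758, 3684139, 1896464, 1562340 and 704642 in males. Transcript_LQ_Female_transcript2816/f2p0/2353 had 31300, 577356, 12.5, 461669 and 538778 in females and 379780, 1234351, 224112, 192494 and 429349 in males. In both, female hepatopancreas 1 was the next lowest and male hepatopancreas 2 the highest of the 10 libraries. Over the 10 hepatopancreas libraries, with log2 levels centred within each sex, transcript2816 was the member most like transcript3149 (Pearson's r = 0.998), followed by transcript_HQ_Female_transcript3167/f17p0/2162 (0.993) and transcript328 (0.989). Without female hepatopancreas 3 the 3 values were 0.978, 0.913 and 0.869 over 9 libraries. Whether such transcripts come from 1 gene or share reads is not given in the files. In transcript2816 and transcript3149, 1 of the 10 hepatopancreas values (10%) was a whole number, and in transcript328 and transcript15564 none was.

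Estimated counts that are not whole arise where a counting program divides reads among transcripts, and levels of such members depend on how it divided them. All 10 hepatopancreas values were whole, within 1e-06, for 127 members (52.3%), against 54.7% of the transcripts tested. For 87 members none was whole, and for 29 some were.

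**Figure D2:**
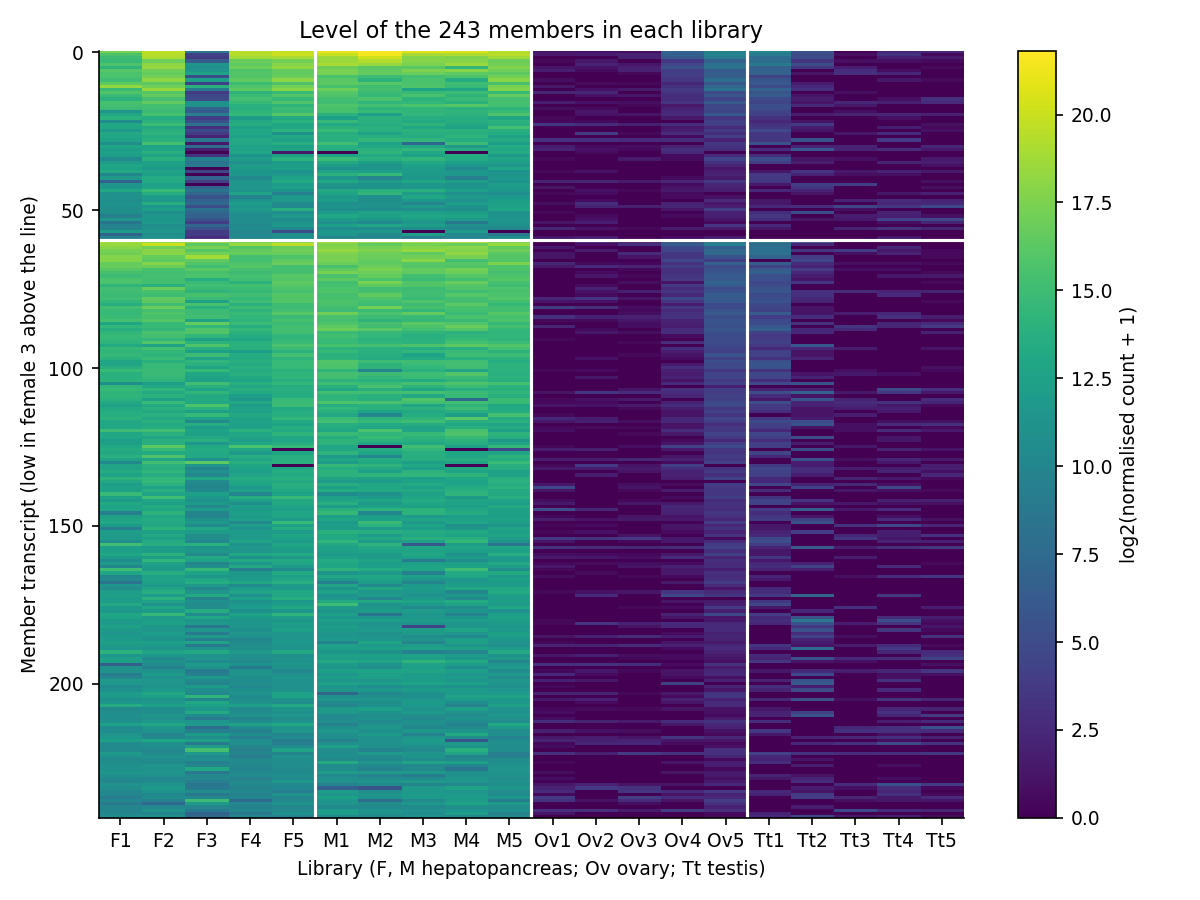
Level of each of the 243 members (rows) in each of the 20 libraries (columns), as log2(normalised count + 1). The 60 members above the horizontal line are those under 10% of the median of the other 4 females in female hepatopancreas 3, and ovary 5, testis 1 and ovary 4 show low levels that follow the order of the hepatopancreas columns.

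Female hepatopancreas 3 stood far below the other libraries for part of the members. In it 60 of the 243 members (24.7%) were under 10% of the median of the other 4 females. This limit was chosen after the data were seen. The same limit took 86 of the 849 other abundant transcripts (10.1%) and 382 of the 6582 transcripts tested (5.80%), and in each of the other 9 hepatopancreas libraries it took 1 to 9 members. All 60 lay below every other female library and 58 of them below every male library. At the median they were 131-fold lower than the other females, 32 of them were under 100 normalised counts, and 4 had no count at all, where 3 counts would be a normalised count of 2.68. That limit, like the others of its kind here, covers counting error only. Scaled by library totals in place of size factors, 52 members were under the limit, all among the 60, against 68 of the 849 others (8.01%).

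**Figure D3:**
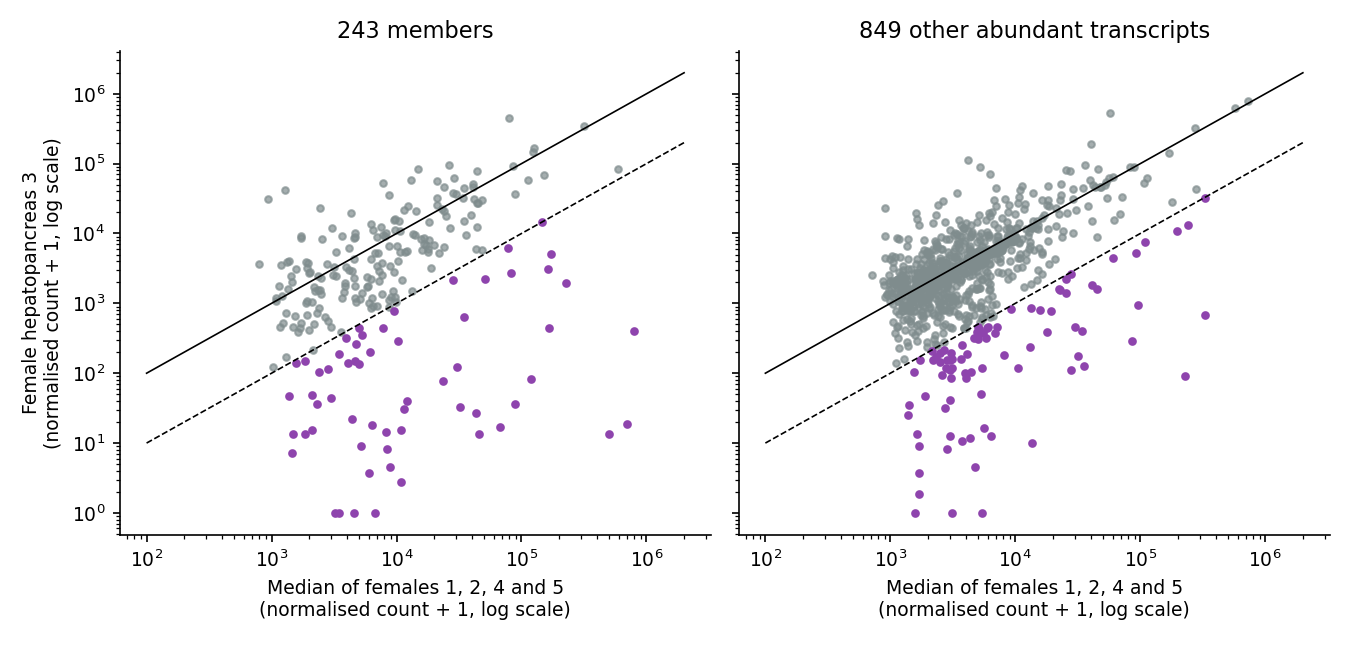
Level in female hepatopancreas 3 against the median of the other 4 females, both as normalised count + 1 on log axes, for the 243 members (left) and the 849 other transcripts abundant in both hepatopancreas groups (right). Purple points lie under 10% of the other females (dashed line; solid line, equality) and number 60 on the left and 86 on the right.

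The smaller hepatopancreas median of these 60 members was 6030 normalised counts at their median, against 4340 for the other 183. They included 4 of the 10 members with the highest level and 22 of the 73 at 10000 or more, where they make 24.7% of all members. Together they held 8.73%, 19.6%, 0.327%, 16.4% and 23.4% of the counts in female hepatopancreas 1 to 5, and from 14.8% to 31.1% in the males. Female hepatopancreas 3 was far below the rest, and female hepatopancreas 1 was the next lowest. The other 183 members held 23.7%, 20.9%, 24.4%, 12.5% and 19.6% in the females, with the highest share in female hepatopancreas 3. These are shares of library totals. On normalised counts, each divided by its group mean, female hepatopancreas 3 was the lowest of the 10 libraries for 126 of the 243 members, more than the 60. It was the lowest for 292 of the 849 other abundant transcripts and for 1391 of the 6582 transcripts tested. It was the highest for 28, 172 and 1372 of these 3 sets, so extreme values in this library were not particular to the members. In it 166 members reached 1000 normalised counts, against 226 to 239 in the other females. The 60 had a median length of 1515 bases against 1377 for the other 183. All 10 hepatopancreas values were whole for 32 of the 60 and for 95 of the 183.

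Most of the likeness among the 60 came with that library. The median Pearson correlation over all pairs of the 60, from log2 levels centred within sex, was 0.873 over 10 libraries and 0.204 over the 9 without female hepatopancreas 3. For pairs of the other 183 it was 0.139 and 0.169, and between the 60 and the other 183 it was 0.132 over the 9. Transcript3149, transcript2816, transcript3167 and transcript328 are among the 60. The correlations of the latter 3 with transcript3149 were 0.869 to 0.978 without that library. They were picked for their likeness to it over all 10 libraries, which include these 9, so the values describe that choice. Since the 60 were chosen on female hepatopancreas 3, the value of 0.873 describes that choice too.

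The spread between libraries was wide. The coefficient of variation over the 10 hepatopancreas libraries, each divided by the mean of its group, ran from 14.9% to 161% among members with a median of 53.2%. The median was 35.8% for the 849 other abundant transcripts and 41.4% for all transcripts tested. Within females the members' median was 60.3%, or 45.0% without female hepatopancreas 3, and within males it was 42.2%. Female hepatopancreas 3 alone held 43.5% of the members' squared deviations, against 35.7% for the other abundant transcripts.

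Variation was lowest for transcript_HQ_Female_transcript2315/f2p0/2357 and transcript_HQ_Female_transcript20493/f7p0/842. The former had 1037, 1141, 1095, 857 and 1126 normalised counts in females and 1291, 1292, 1380, 1900 and 1678 in males. The latter had 1415, 1476, 2034, 1320 and 1859 in females and 1255, 1180, 1525, 1359 and 1677 in males. No library stood apart in either, and both lie near the lower limit of 1000.

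Variation was highest for transcript_HQ_Female_transcript22460/f3p0/729, at 161%, and transcript_HQ_Female_transcript18879/f18p0/1002, at 152%. The former had 1419, 1143, 41680, 754 and 5897 normalised counts in females and 1614, 839, 1336, 14405 and 1608 in males. The latter had 1143, 762, 31071, 192 and 1124 in females and 2773, 241, 1236, 3598 and 606 in males. Here female hepatopancreas 3 was the highest library, and these were the 2 members that lay over 10-fold above the other females in it.

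The comparison of the sexes asks which of these transcripts differ between female and male hepatopancreas. Labelled weight gain does not overlap between the sexes and was not part of this fit. Sex and weight gain therefore cannot be told apart in it. The rule bounded the ratio of the sexes, so the values describe the members and were not used as a test of them. By group medians 82 members were higher in females and 161 in males, with a median log2 difference (female minus male) of -0.41. The 2 medians were within 2-fold for 163 members, at least 2-fold higher in females for 23 and at least 2-fold higher in males for 57. The split depends on the scaling. With TMM factors, which assume that most transcripts do not differ, the fitted log2 change was also above 0 for 82, and with library totals alone it was above 0 for 124 and below 0 for 119. That scaling moved the median of all transcripts tested from 0.06 to 0.50 and the members' median from -0.36 to 0.02, so the members' median lay below that of all transcripts under both. The members' median under TMM was -0.19 without female hepatopancreas 3 and -0.23 without female hepatopancreas 4. In edgeR's quasi-likelihood test with Benjamini-Hochberg adjustment, 3 of the 243 members passed an adjusted p of 0.05, all higher in males, where 4.39% of all transcripts tested passed, 2.19% higher in females and 2.20% higher in males. With DESeq2, 30 members passed, where 18.5% of all transcripts did. The rule caps the ratio of the sexes, so nothing is read from these member counts beside the shares of all transcripts. The edgeR count was 0 without any 1 of 8 hepatopancreas libraries in turn, 6 without female hepatopancreas 3 and 18 without male hepatopancreas 5.

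The 2 members with the largest female excess were transcript_HQ_Female_transcript9733/f13p0/1499 and transcript_HQ_Female_transcript22132/f13p0/729. Transcript9733 had 16661, 6898, 9231, 3336 and 9351 normalised counts in females and 2642, 2429, 752, 973 and 9202 in males. Transcript22132 had 5859, 8036, 3470, 5926 and 8064 in females and 759, 2045, 1619, 803 and 8613 in males. In both, 4 males lay below every female and male hepatopancreas 5 lay within or above the female range. The fitted log2 changes (female minus male) were 1.55 ± 0.70 (SE) and 1.23 ± 0.67, and without male hepatopancreas 5 they were 2.55 ± 0.57 and 2.40 ± 0.41.

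The 2 with the largest male excess were transcript_HQ_Female_transcript11784/f47p0/1377 and transcript_HQ_Female_transcript1559/f7p0/2595. Transcript11784 had 5316, 2303, 1531, 1366 and 2412 normalised counts in females and 9051, 7036, 18542, 9576 and 1001 in males. Transcript1559 had 1891, 1358, 667, 1297 and 1695 in females and 10463, 2658, 6747, 5304 and 1695 in males. Again 4 males stood apart from every female, and male hepatopancreas 5 lay below the female range in transcript11784 and inside it in transcript1559. The fitted log2 changes were -1.74 ± 0.65 (SE) and -1.89 ± 0.50, and without male hepatopancreas 5 they were -1.97 ± 0.46 and -2.05 ± 0.43.

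**Figure D4:**
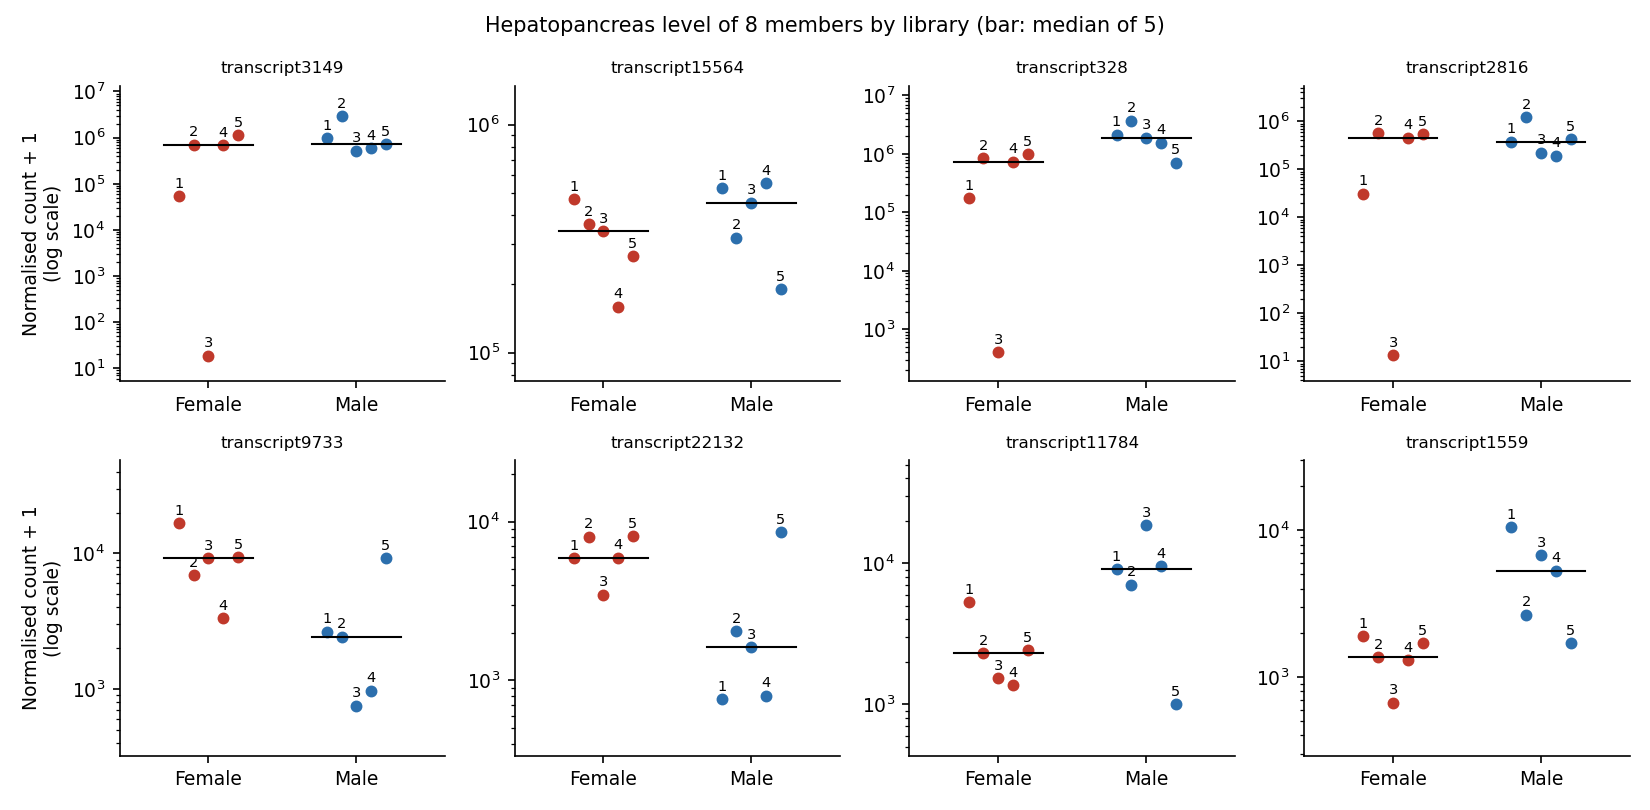
Hepatopancreas level (normalised count + 1, log axis, a different range in each panel) of the 4 members with the highest level per kilobase (top) and the 4 with the largest sex difference of medians (bottom). Points are libraries numbered by replicate, 5 per sex, and bars are group medians. Female 3 is at 17.9 normalised counts in transcript3149, and in the bottom row male 5 lies within the female range in transcript9733 and transcript1559, above it in transcript22132 and below it in transcript11784.

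The position of male hepatopancreas 5 was general among members that differed between the sexes. Over the 80 members at least 2-fold apart, it was nearer to the female than to the male median, on the log2 scale, for 61. The count was 19 of the 23 with the higher female median and 42 of the 57 with the higher male median. The other 4 males were nearer to the female median for 9 to 14 of the 80, and the 5 females nearer to the male median for 12 to 27. This count was chosen after the data were seen, and each library enters the median it is compared with. Its labelled weight gain, 2.77, lies within the range of the other males. Whether the label of this library is right was not tested.

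Weight gain within sex was the measure that the rule did not use, and the question was whether the level of a member changed with it. In edgeR's quasi-likelihood test over the 10 hepatopancreas libraries, with sex as a covariate, 0 of the 243 members and 0 of the 6582 transcripts (0%) passed an adjusted p of 0.05. Without adjustment, 3 members (1.23%) had a p under 0.05, against 6.15% of all transcripts tested. The smallest adjusted p of a member was 0.761. The fitted slope was above 0 for 86 members and below 0 for 157, with a median of -0.08 log2 units per unit of weight gain, against 0.02 for all transcripts tested. The members' median moved with single female libraries. It was -0.21 without female hepatopancreas 2 (67 above 0 and 176 below), -0.03 without female hepatopancreas 3 (109 and 134), -0.05 without female hepatopancreas 4 (94 and 149) and -0.03 without female hepatopancreas 5 (113 and 130). With DESeq2, 1 member passed, where 1.35% of all transcripts did.

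That member was transcript_HQ_Female_transcript822/f9p0/3003, which also had the smallest p of the negative slopes in edgeR. It had 9758, 5436, 3821, 1777 and 9799 normalised counts in females at a weight gain of 4.33, 6.78, 7.05, 7.21 and 4.45, and 12912, 3322, 7155, 6016 and 4691 in males at 2.06, 3.69, 1.61, 2.83 and 2.77. The 2 females of lowest gain had the highest levels, and the male of highest gain had the lowest. Its slope was -0.63 ± 0.16 (SE) log2 per unit of weight gain, with an adjusted p of 0.761 in edgeR and 0.0196 in DESeq2. Fitted alone, the slope was -0.57 ± 0.20 in females and -0.76 ± 0.35 in males.

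The negative slope of next smallest p was that of transcript_HQ_Female_transcript19344/f3p0/967, which had 217979, 82606, 91832, 39505 and 88197 normalised counts in females and 176644, 99389, 244558, 40579 and 64606 in males. Its slope was -0.53 ± 0.23 with an edgeR adjusted p of 0.802. The positive slopes of smallest p belonged to transcript_HQ_Female_transcript3530/f36p0/2083, at 0.90 ± 0.43 with an adjusted p of 0.812, and transcript_HQ_Female_transcript16390/f3p0/1180, at 0.79 ± 0.47 with an adjusted p of 0.869. Transcript3530 had 1270, 35997, 82778, 13746 and 15922 normalised counts in females and 4117, 9595, 5421, 6976 and 28097 in males. Transcript16390 had 2364, 12044, 149, 6964 and 699 in females and 6652, 21128, 4189, 1981 and 1611 in males. None of these 3 slopes passed in either tool, and that of transcript3530 was 0.62 without female hepatopancreas 1 and 1.58 without female hepatopancreas 5. It was 0.63 without female hepatopancreas 3 and 0.82 without male hepatopancreas 5. The slope of transcript16390 was 0.94 without female hepatopancreas 3 and 0.53 without male hepatopancreas 2. The slope difference between the sexes passed an adjusted p of 0.05 in edgeR for 0 members and 0 transcripts (0%), and 5 members had an unadjusted p under 0.05, where 1.88% of all transcripts did. With DESeq2, 0 members and 7 transcripts (0.106%) passed that test.

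In the gonads the members were not uniformly absent. Only 3 members had no count in any of the 10 gonad libraries, 4 had none in any ovary and 24 none in any testis. The highest gonad library of a member was under 10 normalised counts for 78 members, from 10 to 100 for 141, and 100 or more for 24. On normalised counts, that library was ovary 5 for 94 members, testis 1 for 71 and testis 2 for 46. Size factors were 1.97, 0.621 and 0.833 in these libraries, so counts in testis 1 and testis 2 were divided by less. As shares of library counts, the members held 0.169%, 0.0302% and 0.0151% there. Without ovary 5 and testis 1, no gonad library reached 10 normalised counts for 163 of the 243. In gonads, 3 counts correspond to between 1.16 and 4.83 normalised counts, so single low values lie near the limit of detection.

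The highest values in single gonad libraries belonged to the most abundant hepatopancreas members. Transcript328 had 3, 2, 2, 201 and 1456 counts, not normalised, in ovary 1 to 5 and 640, 39, 0, 5 and 9 counts in testis 1 to 5. Transcript3149 had 5, 4, 8, 190 and 1787 counts in the ovaries and 301, 26, 1, 10 and 1 in the testes. Ovary 5, testis 1 and ovary 4 were high for both, and the other libraries held 39 counts or fewer. After normalisation the highest was transcript328 in testis 1, at 1031. Ovary 5 held 16671 of the counts that fell on members in gonads, which is 56.6% of them, and 234 of the 243 members had a count there.

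In these libraries the members stood in the order of the hepatopancreas. Across the 243 members, the Spearman correlation of ovary 5 with female hepatopancreas 5 was 0.884, and the highest with any other hepatopancreas library was 0.810. Testis 1 had 0.832 with male hepatopancreas 1 (highest other 0.739) and ovary 4 had 0.635 with female hepatopancreas 4 (highest other 0.619). Testis 2 with 0.283 and testis 3 with 0.0736 were also highest with the hepatopancreas library of their own number. In the other 5 gonad libraries the own number was not the highest, and no correlation with it was above 0.122. These correlations are across transcripts of shared libraries and carry no test.

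The gonad levels were also set against the hepatopancreas library of the same number. For the 73 members at 10000 or more, a member's share of the counts in ovary 5 was 0.421% of its share in female hepatopancreas 5 (median, quartiles 0.352% to 0.487%), and all 73 had a count. The median was 0.0820% in testis 1 (quartiles 0.0637% to 0.102%) and 0.0764% in ovary 4 (quartiles 0.0503% to 0.114%). It was at most 0.00687% in the other 7 gonad libraries. Whether the counts come from gonad cells was not tested. Labelled weight gain differed within each same-numbered pair of hepatopancreas and gonad samples, with 4.45 and 7.52 for female hepatopancreas 5 and ovary 5, 2.06 and 2.05 for male hepatopancreas 1 and testis 1, and 7.21 and 4.98 for female hepatopancreas 4 and ovary 4. The sample descriptions name such pairs alike, as in Female5_Hp and Female5_Ov, while their weight gains differ. Whether samples of equal number came from 1 animal therefore cannot be told from the labels.

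**Figure D5:**
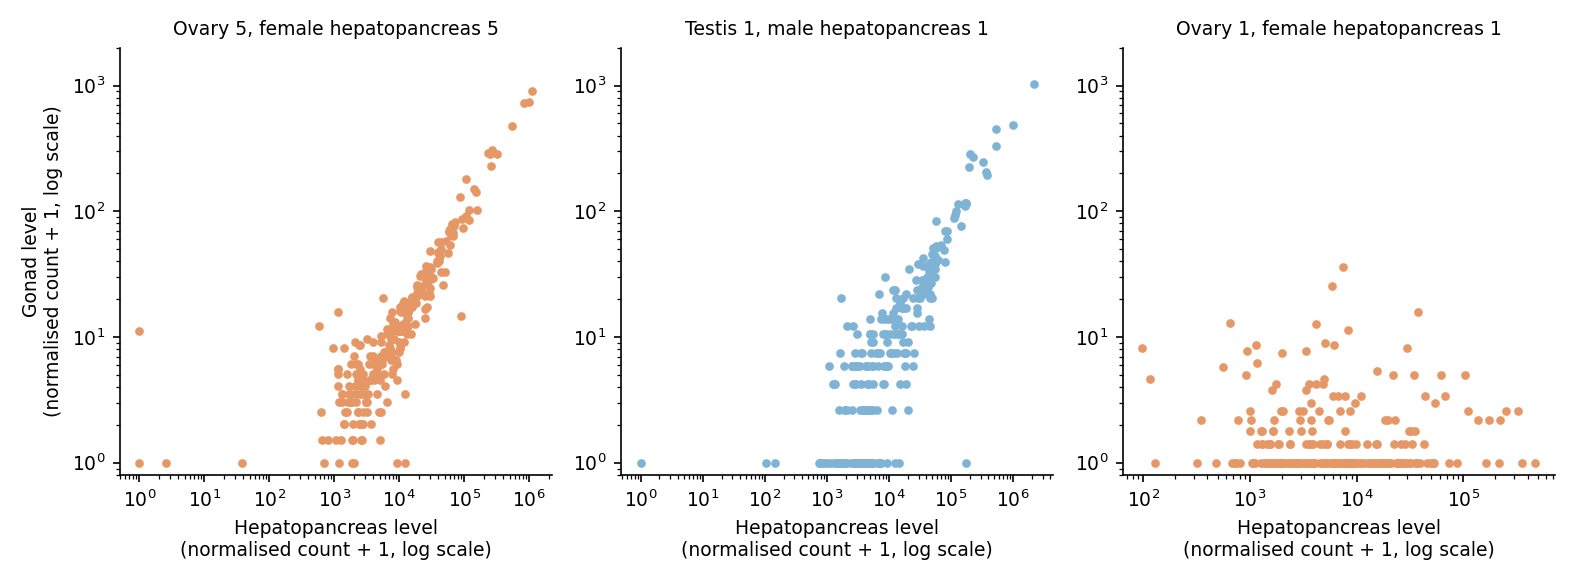
Gonad level against the level in the hepatopancreas library of the same number, for the 243 members, both as normalised count + 1 on log axes. In ovary 5 (Spearman's rho 0.884) and testis 1 (0.832) the points rise along 1 line, and in ovary 1 (-0.078) they do not.

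Near the limits of the rule, the member with the lowest hepatopancreas median stood at 1005 normalised counts and the nearest transcript left out at 995. The highest gonad median inside was 9.99 and the nearest outside 11.6. The largest ratio of the hepatopancreas medians inside was 3.93 and the smallest outside 4.01.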

How the data were processed

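The table holds estimated counts as deposited by the authors, 1 column per library and 1 line per transcript, not normalised: column totals differ and many values are not whole. The submitters' processing notes list Bowtie 0.12.2 and DESeq 1.10.1 but say nothing of their role. RNA was prepared with a directional library kit, per the labels' protocols. No source used here gives the counting program or how the transcript set was built.

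Estimated counts were rounded to whole numbers. Size factors for the rule were DESeq2's median of ratios over the 20 libraries. Tests used edgeR 4.0.16 (quasi-likelihood, TMM factors) in R 4.3.3 on the 10 hepatopancreas libraries, for the 6582 transcripts that reached 10 counts in 5 or more of them. P-values were adjusted by Benjamini-Hochberg over all 6582. All 243 members passed this filter. DESeq2 1.42.0 was an alternative. The edgeR fits were also run on simulated counts with large planted changes. That run does not show how often slopes as small as most fitted here would be found. Summaries used Python 3.11.15, pandas 2.3.3, numpy 2.4.6 and scipy 1.17.1, and figures matplotlib 3.10.9. The per-kilobase level divides by the deposited length.

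Members, lists and tests were chosen with earlier results of these data known. Named members are the 4 highest per kilobase, the 2 extremes per direction of sex ratio and of weight gain p, the 2 highest and 2 lowest in variation, the 2 highest in a gonad library, and the 3 most like the first.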

Additional observations from a re-analysis of the deposited data

Results flagged for a closer look

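In each group of 5 libraries, the member share and the named members were checked for a lowest or highest library whose gap to the nearest other exceeded 0.71 of the range (Dixon's 95% value). Of 42 groups checked 15 were marked. Chance marks about 1 in 20 of groups taken at random, but most of these members were chosen for extreme values or for likeness to each other, so the 2 rates are not comparable. Levels here are normalised counts.

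Among the ovaries, the members' share of 0.169% in ovary 5 was marked as far from the other 4, as were transcript328 (739) and transcript3149 (907) there. Testis 1 was marked as high for the same 2 transcripts (1031 and 485). Among males, hepatopancreas 2 was marked as high for transcript3149 (2895322), transcript2816 (1234351) and transcript16390 (21128). Male hepatopancreas 5 was marked as high for transcript9733 (9202), transcript22132 (8613) and transcript3530 (28097), and male hepatopancreas 4 for transcript22460 (14405). Among females, hepatopancreas 3 was marked as high for transcript22460 (41680) and transcript18879 (31071), and hepatopancreas 1 for transcript11784 (5316).

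These marks are on the linear scale, where a low library is seldom far from the rest. On log2(normalised count + 1), the females had a marked library for 42 of the 243 members, and for 36 of these it was female hepatopancreas 3 on the low side. For the 849 other abundant transcripts the numbers were 132 and 78.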

How the results depend on the processing

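Without each of the 20 libraries in turn, the rule gave 227 to 253 members, and other size factors, limits or ratios gave 163 to 300, the most the rule keeps. With the highest gonad library in place of the median under 10, it gave 78. For weight gain, DESeq2 called 89 transcripts and 1 member where edgeR called 0 and 0, and for its difference between the sexes DESeq2 called 7 transcripts and 0 members. Without each hepatopancreas library these edgeR counts were 0 throughout. For the sexes, edgeR called 289 transcripts and 3 members. The counts were 1216 and 30 with DESeq2, 0 and 0 with library totals, 0 and 0 with no filter on low counts, 456 and 7 with a filter of 50 counts, and 437 and 10 without female hepatopancreas 4 and male hepatopancreas 5. Leaving out each library gave 0 to 740 transcripts and 0 to 18 members, the highest without male hepatopancreas 5 and, at 616 and 6, without female hepatopancreas 3. The cause was not tested.

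The replicate number as a block gave 0 and 0 for the sexes and turned the slope of transcript16390 from 0.79 to -0.48. The deviations of same-numbered female and male hepatopancreas libraries correlated between -0.078 and 0.111 over 6582 transcripts. Each value rests on 1 pair of libraries, so it cannot show whether such samples shared more than a number. The count of 60 members low in female hepatopancreas 3 was 48 to 72 under other limits and scales chosen after seeing the data. A low count of calls does not show that levels did not differ.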
